A study of Mus musculus with 6 samples.

Results

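The 10 genes described here are established targets of the transcription factor p53: Cdkn1a, Mdm2, Ccng1, Trp53inp1, Eda2r, Phlda3, Zmat3, Sesn2, Bbc3 and Pmaip1. They were listed by symbol as known p53 targets, with earlier results of these data already known, and each matched 1 of the 37576 genes of the count table. All 10 passed the filter on low counts, among 16511 genes tested. RNA of whole fetal livers, dispersed to single cells, was sequenced from C57BL/6 mouse embryos at embryonic day 12.5. Wild type was sampled in 1 male embryo (liver 2) and 2 female embryos (livers 15 and 17). The mutant livers 6, 16 and 19, all male, had the genotype Adar1E861A/E861A, in which both copies of the gene encode an ADAR1 protein that cannot edit adenosine to inosine in double-stranded RNA. The mutation is carried by the whole embryo and is not limited to a cell type.

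p53, encoded by Trp53, is a transcription factor that is held at a low level in resting cells, mainly by the ubiquitin ligase Mdm2, and that accumulates after DNA damage and other stress. It binds response elements made of 2 decamers and raises genes that arrest the cell cycle, repair DNA, restrain growth or start apoptosis, and Mdm2 is itself a target, which closes a feedback loop. In blood-forming tissue p53 is known to restrain the division and survival of progenitors. Several of its targets are also known to answer to other signals: Sesn2, Bbc3 and Pmaip1 to the transcription factors of the integrated stress response, and Cdkn1a to interferon signalling.

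Sequences matching the p53 consensus response element were sought within 3000 bases on each side of the annotated start of each gene, in NCBIM37. The C and the G of the core of each decamer had to match, the decamers were adjacent or 1 base apart, and the element, being its own reverse complement, was read on both strands at once. The 5 matches with at most 1 mismatch in the 10 genes are shown because such elements are what p53 binds. Capitals mark the decamers, and 4 flanking bases on each side and any base between the decamers are in lower case. The strand is that of the gene.
Cdkn1a: tcagGAACATGTCTTGACATGTTCagcc
Ccng1 (upstream): ggccAGACCTGCCCGGGCAAGCCTtggc
Ccng1 (intron): cggaACGCAAGCCCGGGCTAGTCTgcgc
Trp53inp1: aggaAAACATGTCCaGGACTAGCCTggac
Zmat3: tgagAAACAAGCCCAGGCATGTCTtggg
The decamers of the Cdkn1a match lie at chr17:29227873-29227892 (+ strand), centred at position -41 from the annotated start. Those of Ccng1 lie at chr11:40568964-40568983 (- strand), centred at -161, and at chr11:40568438-40568457 (- strand) in an intron. The Trp53inp1 match, at chr4:11082259-11082279 (+ strand), is centred at -1309, and the Zmat3 match, at chr3:32263253-32263272 (- strand), is in an intron. The Trp53inp1 and Zmat3 elements had no mismatch, and the other 3 had 1. Eda2r and Pmaip1 had a match with 2 mismatches, and Mdm2, Phlda3, Sesn2 and Bbc3 had none with up to 2 in this window. Of 14871 protein-coding genes tested, 0.289% had a match with no mismatch, 2.78% with at most 1 and 14.9% with at most 2. These genes are known as p53 targets in part through such elements, so the matches describe them and are not independent evidence, and a missing match says only that these letters are not in this window.

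Of the 10 genes, 8 rose in E861A and none fell, and 2, Mdm2 and Ccng1, did not pass the test. A gene rose or fell where its p in edgeR's quasi-likelihood F test, adjusted by Benjamini and Hochberg's method across the whole table, was under 0.05. Over all genes tested 7.77% rose and 4.26% fell by that rule. The median log2 fold change was 1.61 over the 10 genes and 0.04 over all genes. In 9 of the 10, all but Ccng1, each E861A library lay above each wild-type library, a pattern that 19.4% of all tested genes showed. Levels are counts per 1000000 reads (CPM), log2 fold changes are E861A minus wild type, SE is the standard error of the fit, and SD is across 3 libraries. The labels name no litters or separate collections, so the p-values measure the spread between these livers only. In RNA of a whole liver, fewer cells of a type and less RNA per cell cannot be told apart.

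**Figure D1:**
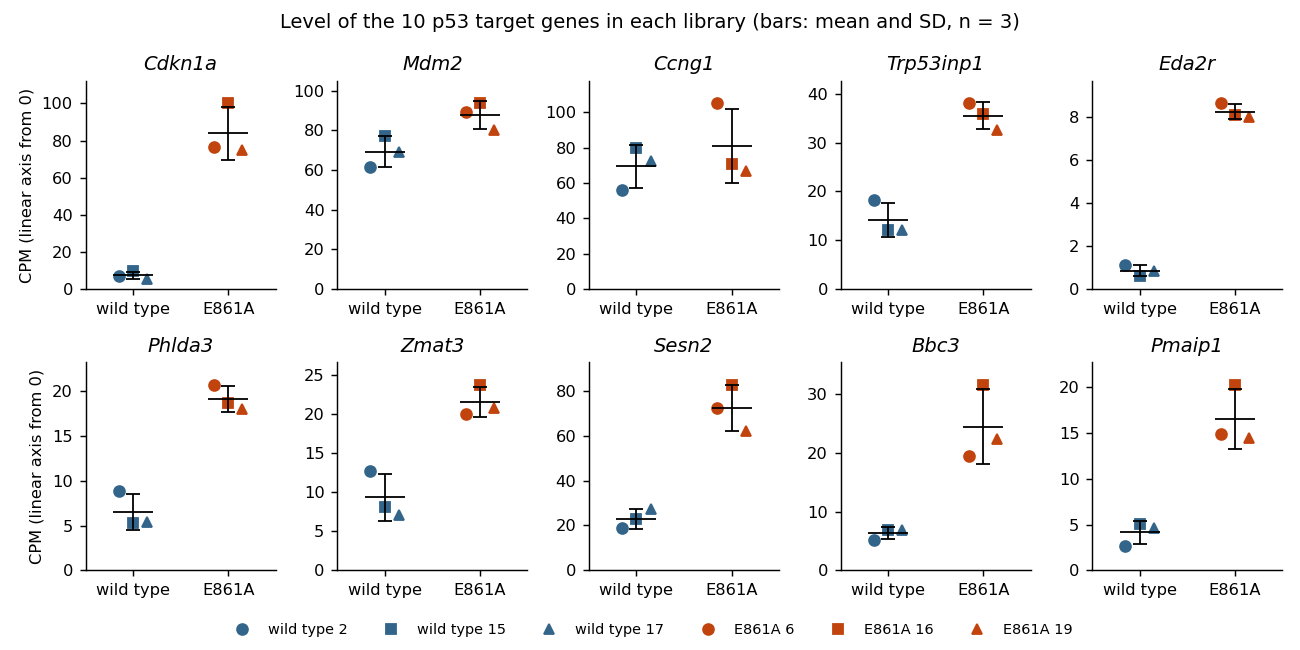
Level of each of the 10 genes in CPM (linear axis from 0) in the 3 wild-type (blue) and 3 E861A (red) libraries, with the mean and SD of each genotype as black bars. In 9 panels the red points lie above all blue points, while in the Ccng1 panel they overlap.

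The cell cycle inhibitor gene Cdkn1a, which encodes p21, had the largest estimate. It (ENSMUSG00000023067, chr17:29227924-29237667, + strand) stood at 7.01, 9.49 and 5.59 CPM in wild type 2, 15 and 17 and at 76.7, 100.05 and 74.6 CPM in E861A 6, 16 and 19. The lowest E861A library was 7.87 times the highest wild-type library, and the counts behind these levels were 211 to 364 reads against 3244 to 3544. The means were 7.36 ± 1.98 and 83.8 ± 14.1 CPM (SD, n = 3 each). On the log2 scale Cdkn1a rose by 3.51 (SE 0.24; edgeR quasi-likelihood test, adjusted p = 8.03e-05). The 95% interval of the fold was 7.78 to 16.6. Cdkn1a held rank 95 of 16511 genes by p and rank 216 by log2 fold change. Many genes thus had a larger estimate, counted whether or not they passed the test. It was called in all 12 alternative fits, with log2 fold changes from 3.30 to 3.73.

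Mdm2 and Ccng1, both of which act on the stability of p53, had the smallest estimates of the 10. Mdm2 (ENSMUSG00000020184, chr10:117125944-117147814, - strand), the ubiquitin ligase that marks p53 for degradation, stood at 61.7, 77.4 and 68.9 CPM in wild type and 89.5, 93.7 and 80.0 CPM in E861A, in the same order of libraries. Its groups did not overlap, but the lowest E861A library was only 1.03 times the highest wild-type library. The log2 fold change of 0.34 (SE 0.14) did not pass the edgeR test (adjusted p = 0.165). The interval of the Mdm2 fold, unadjusted for the number of genes, ran from 1.01 to 1.59. Ccng1 (ENSMUSG00000020326, chr11:40562054-40568813, - strand), the gene of cyclin G1, which works with a phosphatase to activate Mdm2, stood at 56.1, 79.96 and 72.3 CPM in wild type and 105.0, 70.7 and 66.7 CPM in E861A. The highest Ccng1 value was in E861A 6, and the other 2 E861A libraries lay within the range of wild type. Its log2 fold change was 0.22 (SE 0.22; edgeR adjusted p = 0.586), with an interval of the fold from 0.823 to 1.64. Without E861A 6 the Ccng1 value was -0.018.

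Both BH3-only genes rose. Bbc3 encodes PUMA and Pmaip1 encodes NOXA, small proteins that bind the survival members of the BCL2 family and trigger apoptosis. Bbc3 (ENSMUSG00000002083, chr7:16894965-16903554, + strand) stood at 5.20, 6.91 and 6.91 CPM in wild type and 19.4, 31.5 and 22.4 CPM in E861A. Its lowest E861A library was 2.81 times its highest wild-type library, and the log2 fold change was 1.95 (SE 0.23; edgeR adjusted p = 0.00186). Pmaip1 (ENSMUSG00000024521) stood at 2.69, 5.11 and 4.63 CPM in wild type and 14.8, 20.2 and 14.4 CPM in E861A, again without overlap. It rose by 1.99 (SE 0.28; edgeR adjusted p = 0.00431), with a 95% interval of the fold from 2.53 to 6.28. In both genes wild type 2 was the lowest library and E861A 16 the highest.

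Eda2r (ENSMUSG00000034457, chrX:94529179-94572555, - strand), a receptor of the TNF receptor superfamily that binds the ectodysplasin form EDA-A2, was the least abundant of the 10 and rose nearly as far as Cdkn1a. It had 48, 23 and 32 reads in wild type and 365, 287 and 365 reads in E861A, or 1.10, 0.60 and 0.85 CPM against 8.63, 8.10 and 7.98 CPM. The E861A libraries lay close together, and the lowest was 7.23 times the highest wild-type library. The Eda2r log2 fold change was 3.27 (SE 0.29; edgeR adjusted p = 0.000384). The gene lies on the X chromosome, and the wild-type group held 2 female livers. Against the male wild-type liver alone the E861A mean of Eda2r was 7.46-fold higher, and with sex in the model the log2 fold change was 2.90 (edgeR adjusted p = 0.0104).

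Sesn2 (ENSMUSG00000028893, chr4:132047947-132066416, - strand) encodes a sestrin that restrains the growth kinase mTORC1 when amino acids are scarce. It stood at 18.7, 22.7 and 27.2 CPM in wild type and 72.4, 82.7 and 62.2 CPM in E861A. The groups were apart by a factor of 2.28 between the nearest libraries. Sesn2 rose by 1.66 (SE 0.18; edgeR adjusted p = 0.0013). An annotated non-coding transcript on the same strand, Gm12981, overlaps Sesn2 and held 2 to 25 reads per library, against 815 to 3062 for Sesn2. No other annotated gene overlapped one of the 10.

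The 3 smallest rises were those of Trp53inp1, Phlda3 and Zmat3, and these calls did not hold in all comparisons of livers. Trp53inp1 (ENSMUSG00000028211, chr4:11083578-11101526, + strand), a nuclear protein that promotes p53 activity and autophagy, stood at 18.2, 12.1 and 12.1 CPM in wild type and 38.1, 35.9 and 32.7 CPM in E861A (log2 fold change 1.33, SE 0.19; edgeR adjusted p = 0.00485). Phlda3 (ENSMUSG00000041801, chr1:137662696-137665713, + strand), whose protein competes with the kinase AKT for membrane lipids, stood at 8.81, 5.32 and 5.40 CPM in wild type and 20.7, 18.7 and 17.98 CPM in E861A (1.55, SE 0.23; adjusted p = 0.00557). Zmat3 (ENSMUSG00000027663, chr3:32233718-32264600, - strand), a zinc finger protein that binds RNA, stood at 12.8, 8.16 and 7.15 CPM in wild type and 20.05, 23.7 and 20.8 CPM in E861A (1.20, SE 0.24; adjusted p = 0.0168). In all 3 the genotypes did not overlap, and wild type 2, the male liver, was the wild-type library nearest to E861A. The E861A mean was 1.95, 2.17 and 1.69 times wild type 2 for Trp53inp1, Phlda3 and Zmat3, against 2.94, 3.56 and 2.81 times the mean of the female livers.

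Wild type 2 was the highest wild-type library for 4 of the 10 genes, Trp53inp1, Phlda3, Zmat3 and Eda2r, which is near the 36.8% of all tested genes with that order. E861A 16 was the highest E861A library for 6 of the 10, Cdkn1a, Mdm2, Zmat3, Sesn2, Bbc3 and Pmaip1, against 28% of all tested genes. Sex was partly tied to genotype, as the E861A livers were all male. With sex in the edgeR model 7 of the 10 genes rose, where 3.21% of all tested genes did, and Zmat3 no longer passed (log2 fold change 0.75, adjusted p = 0.128). In the male livers alone, 3 E861A against 1 wild type whose spread was taken from the E861A group, 5 of the 10 rose (Cdkn1a, Eda2r, Sesn2, Bbc3 and Pmaip1), where 1.68% of all tested genes did. Trp53inp1, Phlda3 and Zmat3 did not pass there (adjusted p = 0.138, 0.136 and 0.285). Without E861A 16, 5 of the 10 rose as well, against 3.02% of all tested genes, and the same 3 genes missed the threshold (adjusted p = 0.0558, 0.0547 and 0.117). Zmat3 also missed it without wild type 15 or 17 or E861A 19 (adjusted p from 0.0592 to 0.0741). Thus 7 of the 10 rose without wild type 15, without wild type 17 or without E861A 19, where 4.64%, 3.23% and 5.89% of all tested genes did. The count stayed at 8 without wild type 2 (10.4% of all tested genes) and without E861A 6 (6.24%). It was also 8 with DESeq2 (9.08%), with edgeR and RLE scaling factors (7.1%), with a filter of at least 1 CPM in 3 libraries (8.5%) and with no filter (4.75%).

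**Figure D2:**
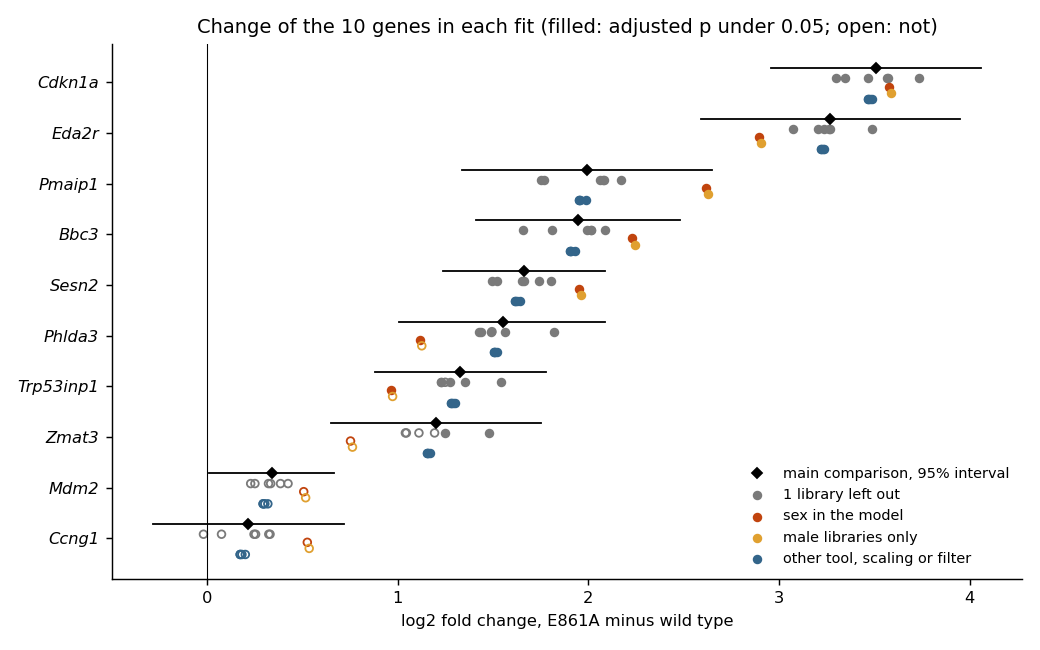
Log2 fold change (E861A minus wild type) of each of the 10 genes in the main comparison (diamond, with its 95% interval) and in the alternative fits (circles, filled where the adjusted p was under 0.05 and open where not). Cdkn1a, Eda2r, Pmaip1, Bbc3 and Sesn2 passed in all 12 alternatives, and Mdm2 and Ccng1 in none.

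The order of the 10 genes by abundance differed between the genotypes. Per kilobase of annotated exon, Ccng1 and Mdm2 were the most abundant in wild type, at 19.8 ± 3.47 and 13.7 ± 1.55 CPM per kb (SD, n = 3), followed by Sesn2 at 6.59 ± 1.23. Cdkn1a was the fifth in that order at 3.31 ± 0.89 CPM per kb. From Sesn2 through Phlda3, Cdkn1a, Bbc3, Trp53inp1 and Pmaip1 to Zmat3, each gene's wild-type range overlapped that of the next, while Eda2r, at 0.144 ± 0.043, lay below all others. In E861A Cdkn1a was the most abundant, at 37.7 ± 6.35 CPM per kb, above Ccng1 (23.0 ± 6.00), Sesn2 (20.8 ± 2.94) and Mdm2 (17.3 ± 1.38). The ranges of Ccng1 and Sesn2 overlapped in E861A, as did those of Sesn2 and Mdm2, whereas Cdkn1a was apart from the next gene. Phlda3 and Bbc3 followed at 12.3 ± 0.90 and 12.2 ± 3.15, and Eda2r, at 1.40 ± 0.06, was still the lowest.

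**Figure D3:**
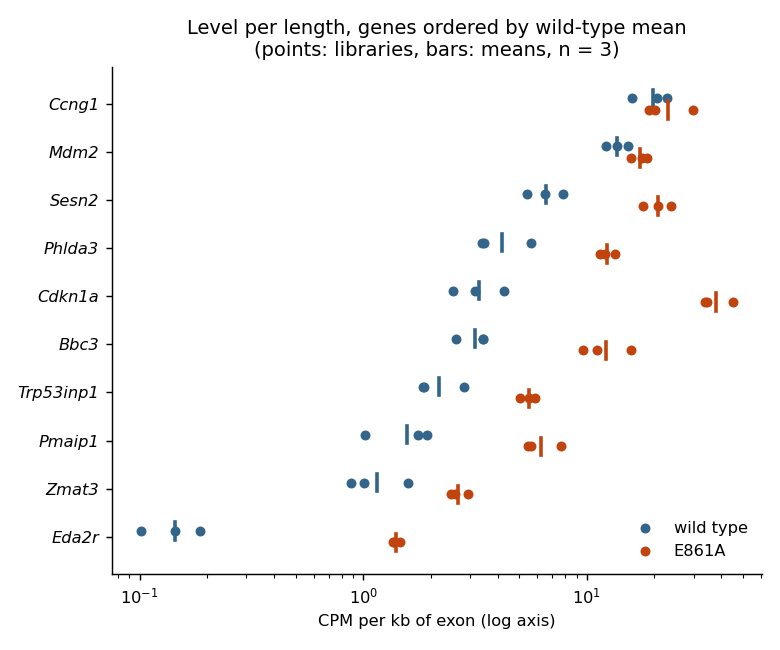
Level of each of the 10 genes in CPM per kilobase of exon (log axis), with 1 point per library and a bar at the mean of wild type (blue) and E861A (red). Cdkn1a is the fifth in wild type, at 3.31, and the highest in E861A, at 37.7.

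The genes whose profile over the 6 libraries was most like that of Cdkn1a were sought among the 13929 genes of at least 1 CPM on average. Likeness was the root mean square difference of log2 CPM, with 0.5 CPM added, each gene set to its own wild-type mean. The nearest were Ifi203 (0.105), Plac8 (0.189), Gvin1 (0.195), Tdrd7 (0.202) and Trim21 (0.206). Gvin1 stood at only 0.44, 0.52 and 0.08 CPM in wild type and reached the average of 1 CPM through its E861A libraries (6.76 to 8.05 CPM). Its log2 fold change was 4.44 (SE 0.56), and at so low a level the 0.5 CPM added weighs on its likeness. Ifi203, the nearest, stood at 5.86, 9.15 and 5.83 CPM in wild type and 69.6, 87.6 and 74.2 CPM in E861A. Wild type 15 was the highest of its group and E861A 16 of its own, as for Cdkn1a. Ifi203 was chosen for its likeness in each library, so the shared order adds nothing to it. None of the other 9 p53 targets was among these 5. Likeness so measured includes the size of the change, which was smaller in each of the 9 than in Cdkn1a. Their absence therefore carries no further meaning. Ifi203 and Gvin1 belong to families of similar genes, so how their reads divide among the copies is uncertain.

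Most of the wider set of p53 targets did not pass. Of 38 other known targets, all tested, 8 rose, 1 fell and 29 did not pass, with a median log2 fold change of 0.39, where 7.77% of all tested genes rose and 4.26% fell. The largest rises were in the stress kinase gene Plk3 (3.23 ± 0.52 to 16.5 ± 3.39 CPM; log2 fold change 2.35, SE 0.24), in Gdf15, a secreted stress signal of the TGF-beta family (2.26, SE 0.27), and in Ddit4, an inhibitor of mTORC1 also known as REDD1 (2.16, SE 0.37). The receptor tyrosine kinase gene Epha2 (1.29, SE 0.17) and the spindle protein gene Psrc1 (1.24, SE 0.20) followed. Bax, the pore-forming executor of apoptosis, rose from 74.4 ± 18.5 to 137.0 ± 20.3 CPM (0.88, SE 0.21; edgeR adjusted p = 0.0341). The death receptor gene Fas had a similar estimate with a wider error and did not pass (1.17, SE 0.48; adjusted p = 0.157). The member that fell was Sesn1, the sestrin gene most often linked to p53, from 43.7 ± 3.93 to 29.6 ± 1.61 CPM (-0.56, SE 0.13; adjusted p = 0.0303).

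The count of rises among these 38 genes was 3 with sex in the model (3.21% of all tested genes), 1 in the male livers alone (1.68%), and 4 without wild type 17 (3.23%) or without E861A 16 (3.02%), while Sesn1 was not called in any of these fits nor without wild type 15. With sex in the model Ddit4, Epha2 and Psrc1 did not pass, at log2 fold changes of 1.55, 1.18 and 1.38. Gdf15 passed there (2.53) but not in the male livers alone, where its value was 2.54. Bax, at 1.32 in the male livers, did not pass there, nor without wild type 17, E861A 6 or E861A 16 (0.73 to 0.90; adjusted p up to 0.137). Plk3 passed in all 12 alternatives.

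Trp53 itself stood at 135.3, 189.4 and 170.1 CPM in wild type and at 220.7, 228.95 and 208.2 CPM in E861A. The groups did not overlap, but the log2 fold change of 0.41 (SE 0.16) did not pass (edgeR adjusted p = 0.148). p53 is mainly controlled through its protein, which RNA counts do not measure. Over all tested genes 7.77% rose and 4.26% fell. Of 18 genes of p53 and its regulators, 15 were tested, of which none rose, 5 fell and 10 did not pass (median -0.46). Trp63, Trp73 and Cdkn2a, the gene of the Mdm2 inhibitor ARF, had too few reads to be tested. The kinase gene Hipk2 fell from 229.0 ± 67.0 to 67.3 ± 26.5 CPM (-1.77, SE 0.35). The deubiquitinase gene Usp7 held 405.8 to 565.4 CPM over the wild-type libraries and 230.2 to 259.6 CPM over the E861A libraries (-0.93, SE 0.17). The other genes that fell were the ubiquitin ligase gene Rfwd2 (-0.65, SE 0.17), the DNA-dependent kinase gene Prkdc (-0.62, SE 0.14) and the checkpoint kinase gene Chek2 (-0.61, SE 0.16). Rfwd2 and Chek2 lay near the threshold (edgeR adjusted p = 0.0436 and 0.0474). Without E861A 19 both missed it (edgeR adjusted p = 0.0847 and 0.0747). Without E861A 6 Prkdc and Chek2 missed it (edgeR adjusted p = 0.0579 and 0.0984). None of these 5 passed with sex in the model, in the male livers alone or without wild type 17, and 1 passed without wild type 15 or without E861A 16. Falls were fewer over all genes too, with 39 in the model with sex and 95 without wild type 17, against 703 in the main comparison. Hipk2 (1592 to 11411 reads per library) overlaps Tbxas1 on the other strand (602 to 868 reads). Their counts may be shared where the libraries were not stranded. Mdm4, the partner of Mdm2, had an unstable value. E861A 6 held 49.8 CPM of Mdm4, below all wild-type libraries (78.5 to 103.03 CPM). E861A 16 and 19 held 124.9 and 126.2 CPM, above all of these.

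Paralogs of the 10 genes mostly did not pass. Of 16, 15 were tested, 2 rose, 1 fell and 12 did not pass, with a median of 0.26. The shares over all tested genes were 7.77% rising and 4.26% falling. The other inhibitors of the p21 family, Cdkn1b (55.9 to 76.5 CPM in wild type, 64.2 to 101.4 CPM in E861A; 0.40, SE 0.20; edgeR adjusted p = 0.252) and Cdkn1c (172.7 to 358.9 and 213.5 to 396.4 CPM; 0.26, SE 0.34; adjusted p = 0.699), overlapped between the genotypes, and the sign of Cdkn1c turned with sex in the model. The paralogs that rose were Hrk and Phlda1. Hrk lay at 0.08 to 0.14 CPM in wild type and passed the filter on low counts only through its E861A libraries (1.97 to 3.11 CPM). The size of its rise rests on that low wild-type level. Hrk, another BH3-only gene, had 14 reads over the wild-type libraries and 303 over the E861A libraries, and rose by 4.39 (SE 0.41; adjusted p = 0.000438), a call that held in all 12 alternatives. Phlda1, which shares a lipid-binding domain with Phlda3, rose by 1.53 (SE 0.32; adjusted p = 0.022) and did not pass with sex in the model, in the male livers alone, or without wild type 17 or any 1 of the E861A livers. Among the sestrins the estimates had opposite signs, since Sesn2 rose and Sesn1, which also belongs to this list, fell.

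Some of the cyclins that p21 binds with their kinases fell. Of 12 CDKs, cyclins and Pcna tested, none rose, 4 fell and 8 did not pass (median -0.49). Among all tested genes 7.77% rose and 4.26% fell. The S-phase cyclin Ccna2 fell from 433.7 ± 78.05 to 202.0 ± 51.9 CPM (-1.10, SE 0.23; edgeR adjusted p = 0.0193). The G1/S cyclin gene Ccne1 fell by 0.91 (SE 0.20) and the mitotic cyclin gene Ccnb1 by 0.84 (SE 0.18) on the log2 scale. Ccnd3, the D-type cyclin of late red cell precursors, fell by 0.72 (SE 0.19), at the edge of the threshold (edgeR adjusted p = 0.0492). Ccnd3 missed the threshold with no filter and without E861A 6 or E861A 19 (edgeR adjusted p from 0.0548 to 0.0852). None of the 12 passed with sex in the model, in the male livers alone, or without wild type 15, wild type 17 or E861A 16. Over all genes 39 fell with sex in the model, against 703 without it. Without wild type 15, wild type 17 or E861A 16 the falls over all genes were 197, 95 and 150. Ccnb1 has near-identical copies in the mouse genome. Ccna2 and Ccnd3 each overlap a gene on the other strand (Exosc9 and Bysl). Counts of Ccna2 and Ccnd3 may be shared with these genes where the libraries were not stranded.

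**Figure D4:**
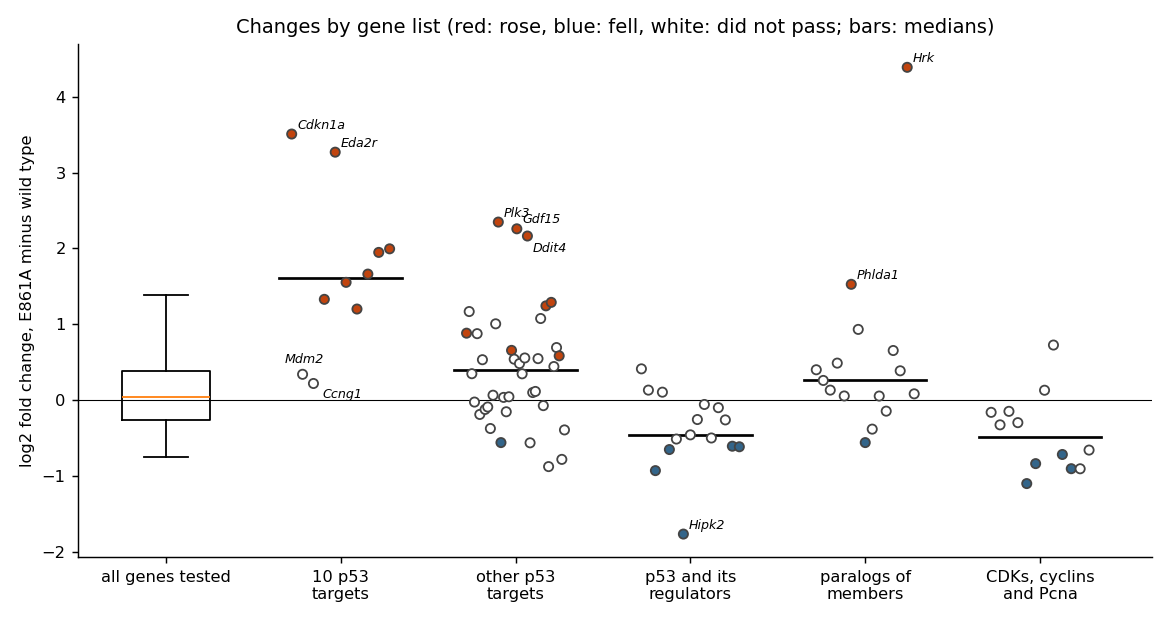
Log2 fold change (E861A minus wild type) of each tested gene in the 5 lists, red where it rose, blue where it fell and white where it did not pass, with the median as a bar. The box gives the median and quartiles of all tested genes, with whiskers at the 5th and 95th percentiles. The median is 1.61 for the 10 p53 targets, 0.39 for the other targets and -0.46 for p53 and its regulators.

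Genes of other stress programmes rose too, against the 7.77% of all tested genes that rose and the 4.26% that fell. The mean level of the 10 p53 targets was 3.45 to 3.53 log2 CPM over the wild-type livers and 4.98 to 5.23 over the E861A livers. Of 8 genes of the integrated stress response 5 rose, with mean levels of 4.24 to 4.79 and 6.29 to 6.71 log2 CPM, led by Chac1 (4.04, SE 0.32) and Nupr1 (3.55, SE 0.22). All 8 interferon-stimulated genes rose, with mean levels of 1.44 to 2.42 and 8.90 to 9.35, led by Oas3 (9.35, SE 0.31) and Ifit1 (8.88, SE 0.71). Of 10 immediate-early and heat shock genes, which dissociation of tissue is known to raise, 5 rose, with mean levels of 2.96 to 5.03 and 5.16 to 6.59, led by the heat shock genes Hspa1a (4.54, SE 0.69) and Hspa1b (3.71, SE 0.87), near-identical copies between which reads divide uncertainly. Wild type 2 was the lowest library of the dissociation and stress response lists. The part of these programmes in the change of the 10 genes was not tested.

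Some cell type markers differed between the genotypes as well. Markers of red cell precursors and of hepatoblasts were abundant in all 6 libraries, and no marker tested was at 0. Of 8 erythroid markers 4 fell and none rose, with a summed level of 10770 to 27140 CPM in wild type and 8804 to 10480 CPM in E861A. Of 9 hepatoblast markers 4 rose and none fell (15240 to 19540 and 18900 to 27740 CPM). By the same rule 7.77% of all tested genes rose and 4.26% fell. With sex in the model none of these markers passed, where 3.21% of all tested genes rose and 39 genes fell. The median log2 fold changes there were -0.57 for the erythroid list and 0.96 for the hepatoblast list. Without sex in the model they were -1.09 and 0.75. None passed in the male livers alone either (medians -0.56 and 0.97). The macrophage, endothelial, mesenchymal, megakaryocyte and stem and progenitor lists had at most 1 call in each direction. Mesenchymal markers summed to 1794 CPM in wild type 2 against 506.8 and 1232 CPM in wild type 15 and 17, and wild type 2 had the highest wild-type level of 4 of the 10 p53 targets, near the 36.8% of all tested genes. The part of cell makeup in the change of the 10 genes was not tested.

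The authors' deposited table, which held 14484 genes and is of the same comparison, gave all 10 genes the same direction and the same side of an adjusted p of 0.05. Not all genes of the other lists kept their side. Chek2, which fell here, had an authors' adjusted p of 0.0512, and Ercc5, which did not pass here, had 0.0495. In the authors' deposited table the log2 fold change, turned to E861A minus wild type, was 3.54 for Cdkn1a (adjusted p = 7.93e-05), 0.36 for Mdm2 (0.131) and 0.21 for Ccng1 (0.555).

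No editing site of the site table, which held 6012 sites, lay within any of the 10 genes or their paralogs. The 38 other p53 targets held 12 sites, in Apaf1, Ddb2 and Ei24, and the regulators held 4, in Chek2 and Hipk2. The CDK and cyclin list held 1, in Cdk1. Few edited reads were counted at these sites in either genotype: 3 of 27 in wild type and 0 of 12 in E861A at the Chek2 site, 3 of 31 and 2 of 11 at the Cdk1 site, and 0 of 174 and 2 of 255 at the more edited of the Apaf1 sites. With so few edited reads the genotypes were not compared at single sites.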

How the data were processed

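RNA-seq counts of 6 fetal livers were used as deposited by the authors: whole reads per Ensembl gene, 35280460 to 43733715 per library. Per the submitters' processing notes, the tools included HTSeq, limma, edgeR and TopHat2 (2.0.8) with Trimmomatic, Cufflinks, BWA and SAMtools, and the builds mm9 and NCBIM37, none tied to a file. Strandedness is not given in the sources used here. Per the file headers, the site table holds covering reads and the edited fraction per site, and the authors' comparison holds log2 fold changes and adjusted p-values of wild type minus mutant, turned here. A table of normalised counts was not used.

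edgeR 4.0.16 (R 4.3.3) compared the genotypes over all genes: filterByExpr, TMM factors, robust quasi-likelihood F test, Benjamini-Hochberg adjustment, threshold 0.05. The fit was tested on simulated data with the same spread for every gene and no effect of sex. It recovered 85.9% of 2-fold and 100% of 4-fold changes there. These shares check the procedure and do not carry over to livers that differ in spread and sex. CPM use TMM-scaled totals. Levels per kb use the union of GENCODE M1 exons, and mean log2 levels add 0.5 CPM. Pairs of replicates differed by far more than counting error (chi-square per degree of freedom 37.3 to 116.0). Alternatives were DESeq2 1.42.0, RLE factors, a filter of 1 CPM in 3 libraries, no filter, sex in the model, male libraries only, and each library left out.

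The 10 genes and the other lists were chosen with earlier results of these data known. All 10 genes are named. From each other list of p53 genes, the called genes with the 6 largest changes are named, and Trp53, Mdm4, Bax, Fas, Cdkn1b and Cdkn1c whatever their value. From the stress lists the 2 largest are named, with the 5 profiles nearest to Cdkn1a.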

Additional observations from a re-analysis of the deposited data

How the results depend on the processing

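No paired analysis was possible because each embryo has its own number in the labels, which give no litter. Among the 10 p53 targets, 109 of 120 alternative values kept their direction and their side of the threshold, 10 kept the direction but missed the threshold, and 1 reversed (Ccng1 at -0.018 without E861A 6, within a range of -0.018 to 0.33 with 1 library left out). Cdkn1a, Eda2r, Sesn2, Bbc3 and Pmaip1 held their calls in all 12 alternatives. For Bbc3 the fit with male libraries only, which has 1 wild-type library, lay at the edge of the threshold (log2 fold change 2.24). DESeq2, RLE factors and both filters left 8 of the 10 called. With male libraries only, 5 of the 10 rose, 1 of the 38 other targets rose and none fell, none of the regulators and none of the CDKs and cyclins fell, 1 paralog rose and 0 fell, and over all genes 301 rose and 8 fell. In the model with sex 3 other targets rose and 0 fell, 0 regulators and 0 CDKs and cyclins fell, 1 paralog rose and 0 fell, and over all genes there were 530 rises and 39 falls, against 1283 and 703 in the comparison as reported. DESeq2 called 1538 falls over all genes and 4 among the other targets, and the filter of 1 CPM in 3 libraries called 1160 and 3. The fits with sex and with male libraries only have 1 more term or 2 fewer samples, and the cause was not tested further. With 1 library left out the rises ranged from 5 to 8 among the 10, from 4 to 10 among the other targets, from 0 to 0 among the regulators, from 1 to 2 among the paralogs, from 0 to 1 among the CDKs and cyclins, and from 515 to 1737 over all genes. The falls ranged from 0 to 0, 0 to 4, 0 to 6, 0 to 1, 0 to 6, and 95 to 1502 in the same order. Over all genes the rises were fewest without E861A 16 and the falls fewest without wild type 17, and both were most without wild type 2. Estimates that changed sign, none of them called, were Mdm4 at -0.14 without E861A 16 and -0.08 without E861A 19 (up to 0.45 without E861A 6), and Cdkn1c at -0.32 in the model with sex, -0.31 with male libraries only and -0.042 without E861A 6 (up to 0.65 without wild type 2). Eda2r had the fewest reads of the 10, 23 to 48 per wild-type library.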
